A study of Mus musculus with 10 samples.

Results

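Leukocyte adhesion molecule genes were followed along the abdominal aorta in males of the ApoE-/- strain. The group is 9 genes taken by name: the selectin genes Sele and Selp, the selectin ligand gene Selplg, the immunoglobulin-like genes Vcam1, Icam1 and Icam2, and the junctional adhesion molecule genes F11r, Jam2 and Jam3. These are 9 of 17991 genes with a named probe, and each had 1 probe, which stood for the gene. The mice lack apolipoprotein E, which raises plasma cholesterol and leads to atherosclerosis, and their aortas were harvested at an age of 14 weeks. Tissue of 2 mice was combined in each of 5 pools, and a pool yielded a suprarenal sample, from above the kidney arteries, and an infrarenal sample, from below them. This gave 5 arrays of each region, numbered by pool as 1, 6, 8, 11 and 12, and the within-pool comparison asked whether a gene was expressed differently below and above the kidneys of the same animals. All mice carried the same genotype, and no wild-type group was analysed here. A value belongs to a pool of animals and to the whole wall with any tissue left around it.

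Leukocytes leave the blood in steps. Selectins on endothelium catch passing cells by a sugar-bearing ligand and let them roll, immunoglobulin-like molecules then hold leukocyte integrins firmly, and junctional molecules at the borders between endothelial cells take part in the passage through the wall. In arteries prone to atherosclerosis, activated endothelium is known to display several of these molecules, and monocytes enter where it does.

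No adhesion gene was called different between the 2 regions. By limma with the pool as a block, 0 of 9 passed an adjusted p of 0.05, as did 0% of all 36061 probes, in either direction. Of the 9, 1 had an unadjusted p under 0.05, where 7.56% of all probes did (3.05% higher and 4.51% lower in infrarenal aorta). Arrays of the regions overlapped for 9 of 9, and did not overlap for 1.33% of all probes. All 5 pools shared a sign for 1 of the 9, where 9.18% of probes with values on every array had that. The gene in both counts was Selp, with a level 1.21 times as high in infrarenal aorta (95% interval 1.02 to 1.43) and an adjusted p of 0.639. The other 8 differences had intervals that included 0, which does not show that those levels were equal. Leaving out the dim Jam2, the 95% intervals of the other 8 genes lay between 0.656 and 1.43 times the suprarenal level. With 5 pools, a test that only turns signs cannot give a two-sided p below 0.0625.

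The arrays carried the markers of an arterial wall. On the log2 scale, where the median of an array lies near 0, the smooth muscle actin gene Acta2 read 8.44 to 8.76 and the endothelial gene Pecam1 3.92 to 4.66 over the 10 arrays. The probe for the deleted gene Apoe lay among the dimmest 30% of probes, with means ± SD of -4.14 ± 0.92 over infrarenal and -3.58 ± 0.74 over suprarenal arrays (n = 5 each). Of 6 measured adrenal cortex markers, 5 were also that dim. Skeletal muscle markers had means from 0.96 to 5.37 log2 units on single arrays and brown adipocyte markers from 2.54 to 5.29, and Ucp1, Acta1 and Th, which mark brown fat, skeletal muscle and sympathetic nerve, spanned 4.37 to 8.43, 2.60 to 7.25 and 1.37 to 5.10. Pool 12 stood apart: over 24991 brighter probes its regional differences had a correlation of -0.308 to the average of the remaining pools, and pool 1 gave -0.097, while pools 6, 8 and 11 gave 0.339, 0.175 and 0.128. For that reason each gene is given also without pool 12.

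**Figure D1:**
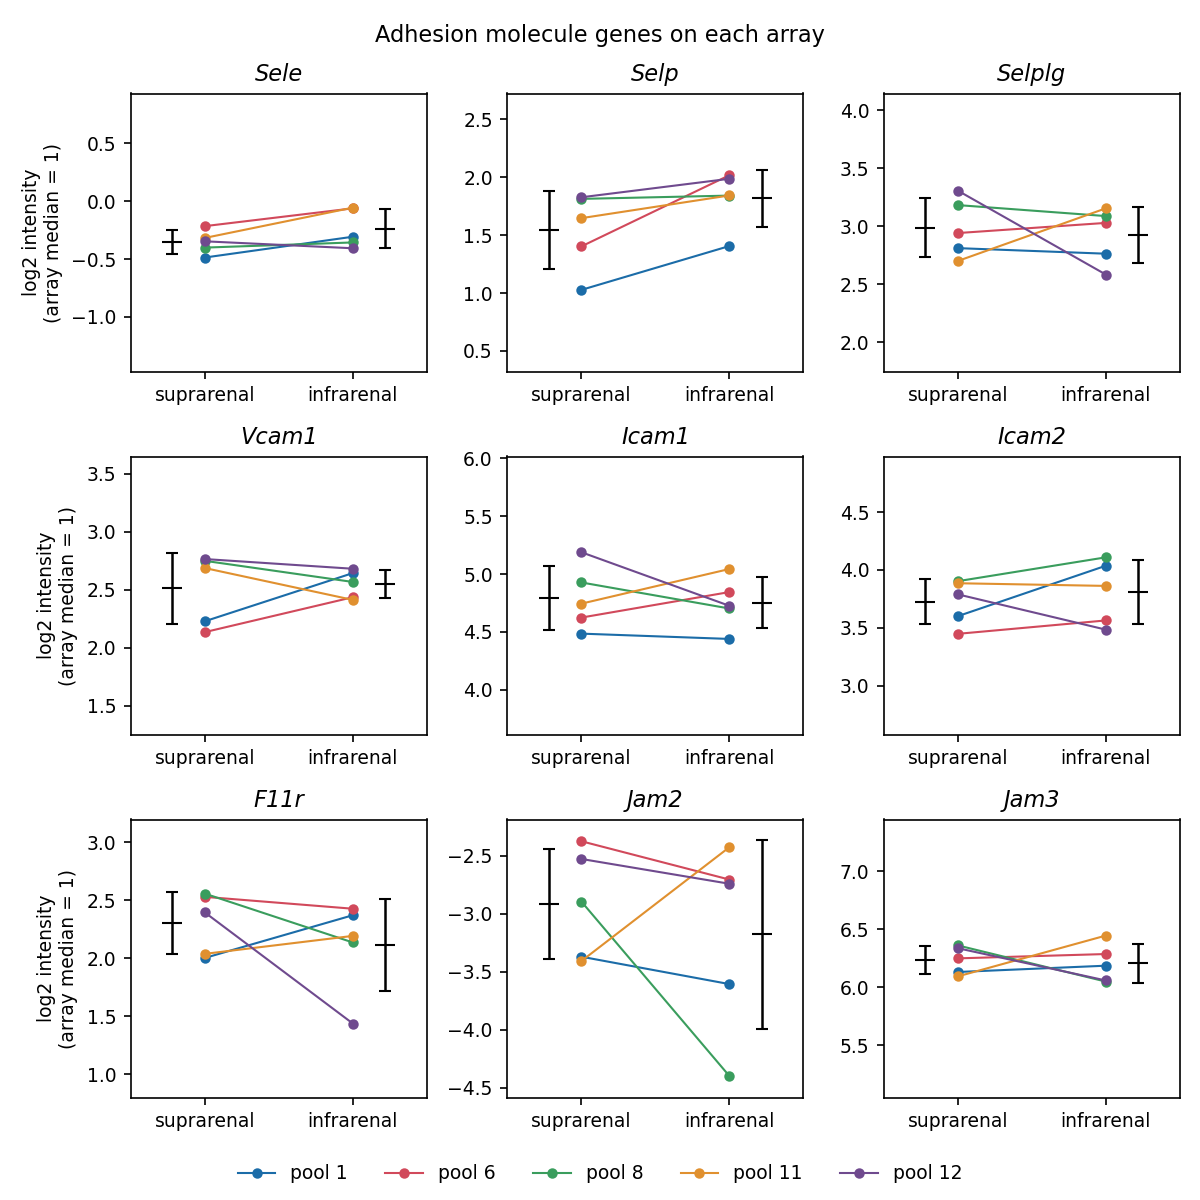
Log2 intensity of each gene (array median near 1 on the linear scale) on the 10 arrays, with lines joining the suprarenal and infrarenal arrays of a pool and black bars for the mean ± SD of the 5 arrays of a region. Every panel spans the same number of log2 units; the infrarenal Selp value is the higher in all 5 pools, while pools differ in sign in the other panels and Jam2 spreads most.

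The selectins come first. Selp encodes P-selectin, which endothelium stores in granules and moves to its surface within minutes of activation, and which platelets also carry. Its infrarenal intensities were 2.65, 4.04, 3.58, 3.58 and 3.96 in pools 1, 6, 8, 11 and 12, in units of the array median. The suprarenal intensities in the same order were 2.04, 2.64, 3.51, 3.13 and 3.55. The infrarenal array was the higher of its pair in all 5 pools, by a margin that ran from almost nothing in pool 8 to the widest in pool 6, but the ranges of the regions overlapped because pool 1 was low in both. The log2 difference, infrarenal minus suprarenal, was 0.28 ± 0.11 (SE, n = 5 pools), with single pools between 0.028 and 0.61. Over all probes with values on every array, 3.89% were higher in infrarenal aorta in all 5 pools. The unadjusted limma p was 0.0322, below 0.05 as for 3.05% of all probes in that direction, and the adjusted p was 0.639. The exact sign-flip test over pools gave 0.0625, the smallest it can give, and was computed for each of the 9 genes. Without pool 12 the difference was 0.30 (adjusted p = 0.445).

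Sele encodes E-selectin, which endothelium makes anew after cytokine stimulation. Its infrarenal intensities were 0.808, 0.957, 0.781, 0.961 and 0.754 in pools 1, 6, 8, 11 and 12, against suprarenal values of 0.714, 0.861, 0.757, 0.802 and 0.786. All 10 lay under the array median, within a span of 1.35 times from lowest to highest. The infrarenal array was higher in 4 of 5 pools, with pool 12 the exception. Its log2 difference was 0.12 ± 0.11 (SE, n = 5 pools; adjusted p = 0.764), and 0.16 without pool 12.

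Selplg encodes PSGL-1, the main selectin ligand, carried by leukocytes rather than by the vessel wall. The infrarenal intensities were 6.79, 8.16, 8.498, 8.90 and 5.99 in pools 1, 6, 8, 11 and 12, and the suprarenal ones 7.02, 7.68, 9.075, 6.497 and 9.89. The lowest and the highest of all 10 arrays were the infrarenal and suprarenal parts of pool 12, and pool 11 ran the other way. Selplg differed by -0.065 ± 0.15 log2 units (SE, n = 5 pools; adjusted p = 0.913), with 3 pools lower and 2 higher in infrarenal aorta, and it turned to 0.10 without pool 12 and to 0.025 after quantile normalization. Beside it, 8 of 8 measured macrophage markers had lower infrarenal means, where 60.4% of all genes did. Their list level was 3.85 ± 0.087 below and 4.16 ± 0.21 log2 units above the kidneys (SD, n = 5 each). None of the 8 passed, while 4 had an unadjusted limma p under 0.05, where 7.56% of all probes did. In pools 1, 6, 8, 11 and 12 the macrophage level differed by -0.090, -0.48, -0.48, 0.0081 and -0.49 log2 units, and Selplg by -0.048, 0.088, -0.095, 0.45 and -0.72. Both had the same sign in 4 of these 5 pools, with pool 6 the exception. In the same order the neutrophil marker level differed by -0.20, 0.57, -0.50, -0.24 and -0.36. It shared the sign of Selplg in all pools but pool 11. The lymphocyte marker level differed by -0.11, 0.34, -0.69, -0.13 and 0.45, with the sign of Selplg in pools 1, 6 and 8. The part of macrophages or other leukocytes in the Selplg values was not tested. In such bulk samples, fewer cells of a type and less RNA per cell cannot be told apart.

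Vcam1 encodes the endothelial ligand of the integrin VLA-4 on monocytes and lymphocytes, and smooth muscle cells of diseased arteries can also make it. Its infrarenal intensities were 6.25, 5.41, 5.93, 5.33 and 6.42 in pools 1, 6, 8, 11 and 12, within a narrow band. The suprarenal intensities were 4.69, 4.39, 6.73, 6.44 and 6.80. The suprarenal arrays of pools 1 and 6 were the lowest of all 10, and those of the other 3 pools the highest. The SD of the log2 values was 0.12 over the infrarenal and 0.31 over the suprarenal arrays (n = 5 each; the difference in spread was not tested). The log2 difference was 0.035 ± 0.12 (SE, n = 5 pools; adjusted p = 0.942), higher in 2 pools and lower in 3. It was 0.065 without pool 12, and -0.060 and -0.031 without pool 1 or pool 6. The 95% interval of the ratio ran from 0.845 to 1.24.

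Icam1 encodes the cytokine-inducible ligand of the integrins LFA-1 and Mac-1. The infrarenal intensities were 21.7, 28.7, 26.0, 33.0 and 26.5 in pools 1, 6, 8, 11 and 12, and the suprarenal ones 22.4, 24.7, 30.4, 26.8 and 36.5. Pool 1 was low in both regions, and the 2 brightest arrays were infrarenal pool 11 and suprarenal pool 12. Between the regions Icam1 differed by a log2 value of -0.043 ± 0.12 (SE, n = 5 pools; adjusted p = 0.927), with 2 pools higher and 3 lower, and 0.062 without pool 12. After quantile normalization it was 0.077. The 95% interval of the ratio ran from 0.803 to 1.17.

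Icam2, a ligand of LFA-1 that resting endothelium displays without stimulation, read 16.4, 11.8, 17.3, 14.55 and 11.2 in the infrarenal parts of pools 1, 6, 8, 11 and 12. The suprarenal intensities were 12.1, 10.9, 15.0, 14.8 and 13.8. Pool 6 was low in both regions and pool 8 high in both. The log2 difference was 0.086 ± 0.11 (SE, n = 5 pools; adjusted p = 0.821), higher in 3 pools and lower in 2, and 0.18 without pool 12 (adjusted p = 0.538).

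Sequence upstream of the start is shown for the genes whose induction by cytokines is best known, Sele and Icam1, and for Selp, the gene with the smallest p. RefSeq promoter windows on GRCm38.p6 were matched for 4 of the 9 genes (Sele, Selp, F11r and Icam1), and the 250 bases before the start are printed 5′ to 3′, on the + strand: chr1:164047984-164048233 for Sele, chr1:164115014-164115263 for Selp and chr9:21015690-21015939 for Icam1. Capitals mark matches to a kappaB-like motif (GGANNTTCC, the kind of site NF-κB binds; both strands), a CRE-like motif (TGACNTCA, both strands) and a TATA box (TATAAA, gene strand), none of which overlap.
Sele: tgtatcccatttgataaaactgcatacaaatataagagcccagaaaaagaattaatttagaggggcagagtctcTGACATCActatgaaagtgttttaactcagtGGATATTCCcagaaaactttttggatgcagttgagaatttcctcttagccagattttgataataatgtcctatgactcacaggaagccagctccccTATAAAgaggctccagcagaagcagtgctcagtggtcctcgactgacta
Icam1: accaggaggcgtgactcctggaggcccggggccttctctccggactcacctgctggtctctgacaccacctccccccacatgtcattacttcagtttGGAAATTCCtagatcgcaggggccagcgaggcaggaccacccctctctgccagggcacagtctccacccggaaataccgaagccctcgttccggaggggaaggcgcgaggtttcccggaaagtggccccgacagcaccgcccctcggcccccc
Selp: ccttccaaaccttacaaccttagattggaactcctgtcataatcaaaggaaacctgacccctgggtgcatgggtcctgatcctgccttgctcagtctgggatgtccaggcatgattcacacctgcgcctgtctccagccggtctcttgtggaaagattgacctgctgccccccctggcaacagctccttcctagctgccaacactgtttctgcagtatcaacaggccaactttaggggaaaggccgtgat

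The kappaB-like letters were found in Sele 145 to 137 bases before the start (GGATATTCC) and in Icam1 153 to 145 bases before it (GGAAATTCC). The same letters occur in 3.59% of 32851 promoter windows of that length. Sele also held a CRE-like match (TGACATCA) 176 to 169 bases and a TATA box 49 to 44 bases before the start, motifs that occur in 7.49% and 7.59% of the windows. In the Selp window these letters were not found, nor in that of F11r. A match is only a run of letters, and factor binding was not measured. Sele and Icam1, which hold the kappaB-like match, differed between the regions by 0.12 and -0.043 log2 units. Selp and F11r, where it was not found, differed by 0.28 and -0.19, and the 95% intervals of these genes overlapped.

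**Figure D2:**
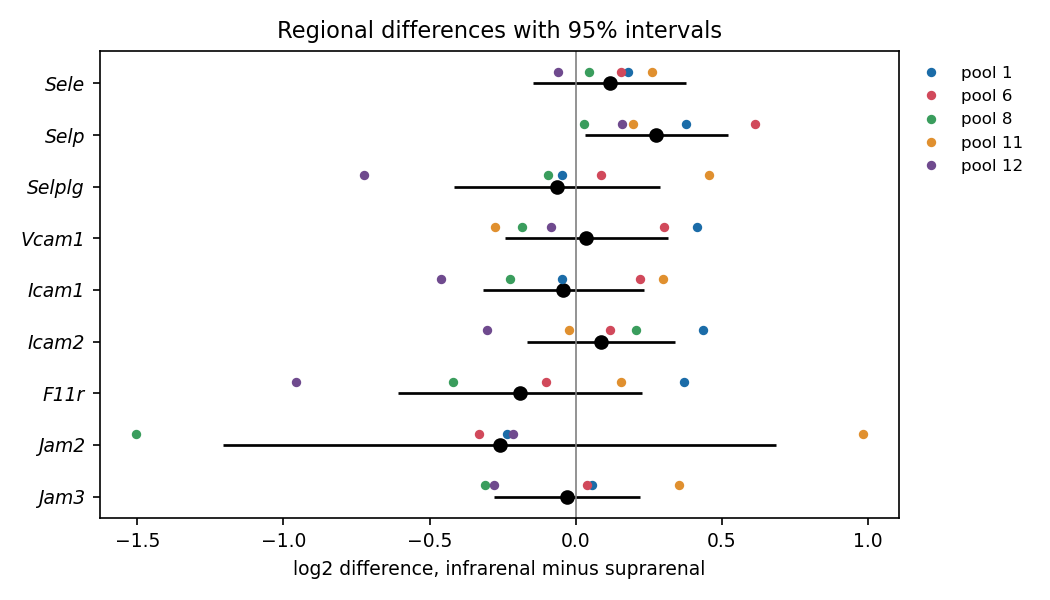
Log2 difference, infrarenal minus suprarenal, for each gene: black points and lines are the limma estimate with its 95% interval, and coloured points above each line are the 5 pools. The interval of Selp lies between 0.030 and 0.52, and the intervals of the other 8 genes cross 0; after quantile normalization the estimates of Icam1, Selplg and Jam3 turn from just below to just above 0.

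The junctional adhesion molecules sit at the contacts between endothelial cells, and leukocytes carry some of them too. F11r, which encodes JAM-A, read 5.17, 5.37, 4.39, 4.57 and 2.705 in the infrarenal parts of pools 1, 6, 8, 11 and 12. The suprarenal intensities were 4.004, 5.77, 5.88, 4.10 and 5.26. The infrarenal part of pool 12 was the lowest array, and the other 9 arrays ran from 4.004 to 5.88. The log2 difference was -0.19 ± 0.18 (SE, n = 5 pools; adjusted p = 0.756), and without pool 12 it was -0.00011 (adjusted p = 0.9997). The endothelial marker level was also lowest on that array, at 2.97 log2 units, where the other 9 arrays had 3.14 to 3.46. Its RNA input to labelling was 0.51 µg. The next lowest F11r values, 4.004 and 4.10, were from suprarenal pools 1 and 11, with inputs of 0.54 and 0.47 µg. The remaining arrays had 0.34 to 0.44 µg. With the endothelial marker level as a covariate F11r differed by -0.20 (adjusted p = 0.743). With RNA input, a covariate chosen after the data were seen, it differed by -0.25 (adjusted p = 0.580). The cause of the low value was not tested.

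Jam3, which encodes JAM-C, had infrarenal intensities of 72.8, 78.1, 66.2, 87.2 and 66.65 in pools 1, 6, 8, 11 and 12, and suprarenal ones of 70.1, 76.1, 82.2, 68.3 and 80.8. Of the 9 genes it had the narrowest span, 1.32 times from lowest to highest array. The log2 difference was -0.029 ± 0.11 (SE, n = 5 pools; adjusted p = 0.946), with 3 pools higher and 2 lower, and 0.033 without pool 12 and 0.11 after quantile normalization. Jam2, which encodes JAM-B, was dim, among the lowest 30% of probes, with intensities between 0.0474 and 0.193. It spanned 4.07 times from lowest to highest array, and its log2 difference was -0.26 ± 0.41 (SE, n = 5 pools; adjusted p = 0.860), and -0.27 without pool 12 (adjusted p = 0.873). With an offset in place of the floor on low values the difference was -0.058. The interval, from -1.21 to 0.69, leaves a difference of more than 2-fold down within its bounds, so this probe gave little information on Jam2.

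For 8 of the 9 genes the SD of the 5 pool differences was larger than their mean, and Selp was the exception; these SDs ran from 0.13 to 0.88 log2 units. Of the 9 differences, 6 were higher in infrarenal aorta in pool 1, 7 in pool 6, 3 in pool 8, 7 in pool 11 and 1 in pool 12. The exception in pool 12 was Selp. Over all genes, 54.0%, 47.3%, 37.2%, 43.8% and 43.3% were higher in the same pools. The median difference of the 9 genes was -0.029 log2 units, beside -0.049 over all 17991 genes, and 5 of the 9 were below 0, where 60.4% of all genes were; after quantile normalization 2 of the 9 were below 0, and without pool 12 also 2. The median over all genes moved too, to 0.0015 after quantile normalization and -0.037 without pool 12, beside 0.11 and 0.065 over the 9.

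**Figure D3:**
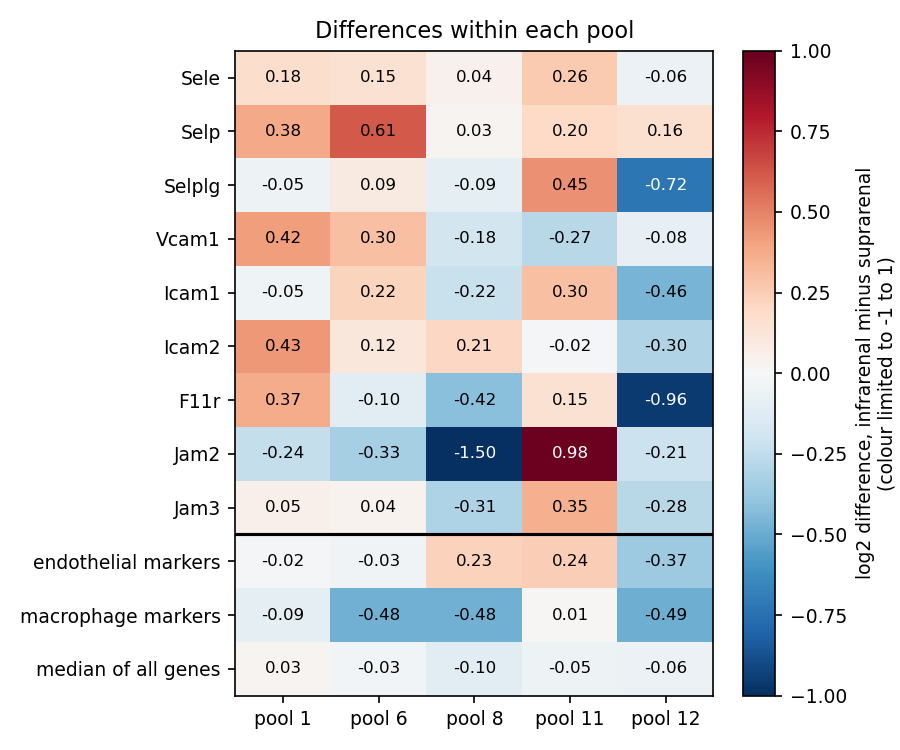
Log2 difference, infrarenal minus suprarenal, within each pool (columns) for the 9 genes, for the mean endothelial and macrophage marker levels and for the median of all genes (rows under the line). Colour runs from blue (lower in infrarenal) to red (higher) and is limited to -1 to 1; the Selp row is above 0 in all 5 pools, and the pool 12 column is below 0 in 8 of 9 genes.

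On the suprarenal array of pool 1, 0 of the 9 genes lay above their own mean over the 10 arrays, where 50.3% of all genes did. On the suprarenal arrays of pools 8 and 12, 8 of 9 did, where 59.8% and 58.3% of all genes did. Suprarenal pool 1 had the largest RNA input to labelling, 0.54 µg, where the other arrays had 0.34 to 0.51 µg. It also had the highest platelet marker level, 2.82 log2 units against 0.61 to 2.10 on the others, and the lowest Selp. Within pools 1, 6, 8, 11 and 12 the platelet level differed by -0.73, 1.02, -0.20, 0.70 and -0.79 log2 units, infrarenal minus suprarenal. Selp differed by 0.38, 0.61, 0.028, 0.20 and 0.16 in the same pools. Pool 6 had the largest of both, while in pools 1, 8 and 12 the platelet level was lower and Selp higher. The part of platelets in the Selp values was not tested. With RNA input as a covariate, an alternative chosen after the data were seen, Selp differed by 0.27 (adjusted p = 0.580). F11r then differed by -0.25, with an unadjusted p of 0.0301 and the same adjusted p.

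Endothelium can make most of these genes, so its marker level is given beside them. The part of endothelium in their values was not tested. Of 11 measured endothelial markers 3 had lower and 8 higher infrarenal means, where 60.4% of all genes were lower. None of the 11 passed, and the list level was 3.29 ± 0.19 below and 3.28 ± 0.097 log2 units above the kidneys (SD, n = 5 each). By pool that level differed by -0.023, -0.035, 0.23, 0.24 and -0.37 in pools 1, 6, 8, 11 and 12. Selp exceeded the endothelial difference by 0.40, 0.65 and 0.52 in pools 1, 6 and 12 and fell short of it in pools 8 and 11, with values of -0.20 and -0.049. With the endothelial level as a covariate Selp differed by 0.28 (adjusted p = 0.682), and with the brown adipocyte level by 0.23 (adjusted p = 0.754). That second covariate moved other genes further down: Selplg to -0.23, Icam1 to -0.17, F11r to -0.32, Jam3 to -0.11 and Jam2 to -0.37, with adjusted p from 0.743 to 0.880, and Sele to 0.074.

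**Figure D4:**
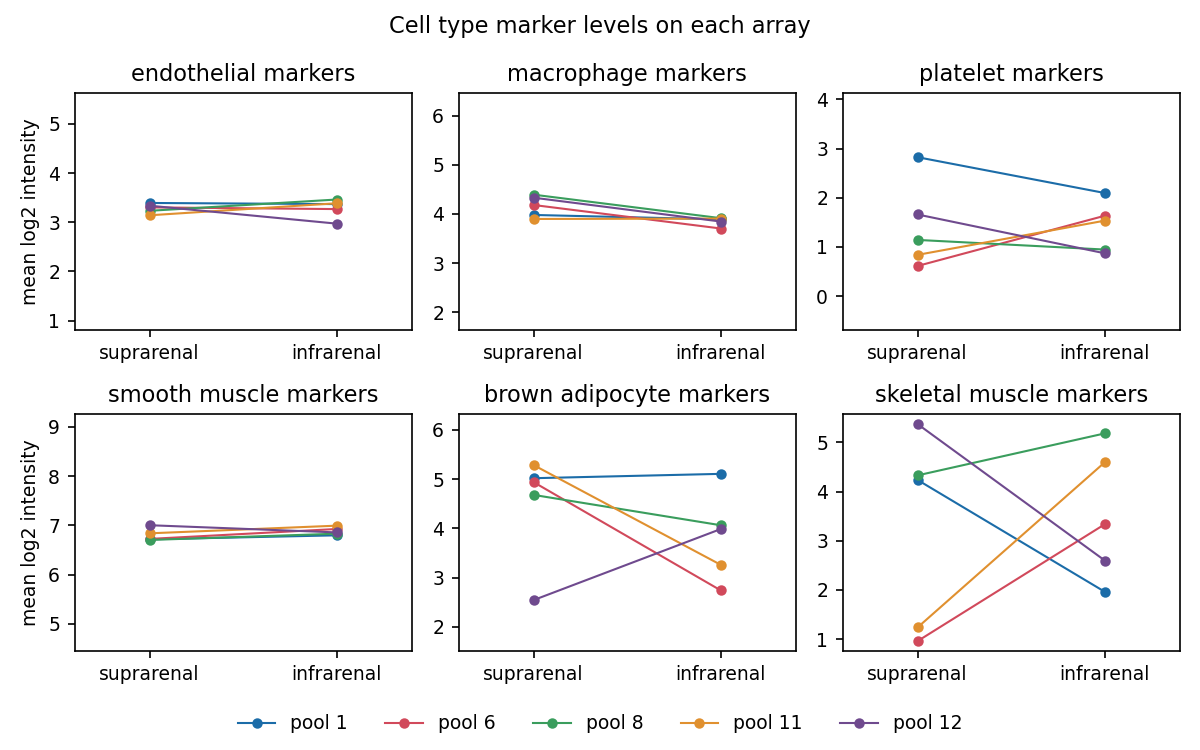
Mean log2 intensity of 6 marker lists on each array, with lines joining the arrays of a pool and every panel spanning the same number of log2 units. Endothelial levels are lower in infrarenal aorta in 3 of 5 pools, macrophage levels lower in 4 of 5 and smooth muscle levels higher in 4 of 5, and brown adipocyte and skeletal muscle levels differ widely between arrays of the same region.

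Over the 10 arrays, which share pools in pairs, 28 of the 36 pairs among the 9 genes, or 77.8%, had a correlation above 0 in their log2 values, and 54.4% of the pairs among all 13963 brighter genes did; the shares were not tested. The highest were Icam1 with Selplg (r = 0.73) and Selplg with Jam3 (r = 0.73), and the lowest was Icam2 with Jam2 (r = -0.66). Among 13962 brighter genes, those with the most similar pattern to Vcam1 were Clu (r = 0.93) and Manbal (r = 0.93). Icam1 was most like Isg20l2 (r = 0.97) and Fam207a (r = 0.96), and Selplg most like Susd3 (r = 0.97) and Golt1b (r = 0.94). Sele was most like Olfr449 (r = 0.92) and Mrgpra3 (r = 0.91), and Selp most like AU022793 (r = 0.95) and Gm4117 (r = 0.94). These correlations describe 10 arrays and carry no test. The most similar genes were picked as the highest of 13962 correlations, so their r is high in part by that choice.

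The partners of these molecules were read from 6 lists with 67 genes, of which 64 were measured. None passed (smallest adjusted p = 0.639), 2 had an unadjusted p under 0.05, or 3.13% beside 7.56% of all probes, and 38 were lower and 26 higher in infrarenal aorta, with a median of -0.028 log2 units. Both of the 2 belong to the selectin ligands and the enzymes that build their sugars. B4galt1, a galactosyltransferase, differed by -0.22 ± 0.068 and Podxl, a sialomucin of endothelium, by -0.54 ± 0.18 (SE), each lower in 5 of 5 pools and neither past the test (adjusted p = 0.639 for both). In that list 6 of 14 genes were lower, with a median of 0.033. Over all 17991 genes 60.4% were lower, with a median of -0.049. Being lower in all 5 pools was seen in 5.29% of probes with values on every array. B4galt1 and Podxl were picked for the smallest p in their list, so their shared sign follows in part from that choice.

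Genes listed for leukocyte integrins, which bind the immunoglobulin-like molecules, were lower in 6 of 9 cases, with a median of -0.13. Itgb1, the beta chain of VLA-4, differed by -0.18 ± 0.082 and Itga4, its alpha chain, by -0.52 ± 0.35 (SE), each lower in 4 of 5 pools. Itga4 read well below the array median, at mean log2 values of -2.34 in infrarenal and -1.83 in suprarenal aorta. Itgb1 read 4.45 and 4.63, and which cells of the whole wall gave that value was not tested. Other junction and transmigration genes were lower in 11 of 15 cases, with a median of -0.029. Over all genes 60.4% were lower, with a median of -0.049. Cldn5, of endothelial tight junctions, differed by -0.37 ± 0.16 and Cdh5, VE-cadherin, by -0.34 ± 0.15 (SE), each lower in 4 of 5 pools. The Cdh5 probe also read below the array median, at mean log2 values of -0.79 in infrarenal and -0.45 in suprarenal aorta.

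Genes of cytokine and transcription control, which switch Sele, Vcam1 and Icam1 on or off, were lower in 8 of 14 cases, with a median of -0.035. Over all genes 60.4% were lower, with a median of -0.049. Tnfrsf1a, a receptor for TNF, differed by -0.16 ± 0.080 (SE), lower in 5 of 5 pools. That sign in all pools was seen in 5.29% of probes with values on every array. Tnfrsf1a too was picked for a small p in its list, so its sign is in part a result of that choice. Irf1, an interferon-induced factor, differed by 0.18 ± 0.10 (SE), higher in 4 of 5 pools. Membrane-actin linkers were lower in 4 of 8 cases (median -0.014), with Fermt3, an activator of leukocyte integrins, at -0.24 and Ezr, which ties adhesion molecules to actin, at 0.13. Of the other ICAM and addressin genes 3 of 4 were lower (median -0.17), with Madcam1, the mucosal addressin, at 0.58 ± 0.37 and Glycam1 at -0.49 ± 0.43 (SE). Both read below the array median. Mean log2 values in infrarenal and suprarenal aorta were -1.31 and -1.89 for Madcam1, and -0.82 and -0.33 for Glycam1.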

How the data were processed

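RNA of 10 aortic samples was measured on 1 single-colour array each; the labels' protocols describe amplified, biotin-labelled cRNA stained with Cy5-streptavidin. What the authors deposited are intensities on a linear scale, scaled by the authors to array medians between 1.001 and 1.003; the scanner and the methods of background correction and scaling are not stated there. Of them, 1968 were missing and 1755 at or below 0. Values below 0.0278 (percentile 1 of positive values) were raised to it, 5328 in all, and log2 was then taken. Raising values to this floor removes differences among values below it. A probe needed 3 values in each region (36061 of 36227 probes). Names came from the platform annotation (21615 probes with 1 symbol, 681 with several, 13931 with none), and 21487 were updated by Entrez identifier through RefSeq.

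The regional test was limma (version 3.58.1, R 4.3.3; lmFit, eBayes with a variance trend), two-sided, with Benjamini-Hochberg adjustment over all probes. The pool was a block because its infrarenal and suprarenal samples share animals; deviations of paired arrays correlated at 0.045, 0.0062, -0.033, -0.053 and -0.092 in pools 1, 6, 8, 11 and 12. Pools are separate animals, and the number of arrays limits the precision. On simulated data of 35714 probes, 8%, 42%, 74% and 82% of 50 probes changed by 0.5, 1, 2 and 3 log2 units were recovered, with 7 false calls.

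All 9 genes are named, with the 2 genes of smallest p per partner list, defining markers (Cd68 had no named probe), Apoe and the 2 most similar genes for 5 members; Pecam1 and Cdh5 are in a partner list and among the endothelial markers. The members and lists were chosen with earlier results of these data known. Alternatives were no replicate block, quantile normalization, an offset of 0.2701 (percentile 25) instead of the floor, leaving out the dimmest 30% of probes or each pool, no variance trend, array weights, marker levels or RNA input as covariates, and averaged probes.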

Additional observations from a re-analysis of the deposited data

Results flagged for a closer look

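Among 44 sets of 5 arrays from 1 region (the 9 genes and 13 marker levels), 2 held an array well apart from the remaining 4, and chance alone gives about 2.2. Selp read 1.41 log2 units on the infrarenal array of pool 1, against 1.84 to 2.02 on the other infrarenal arrays; the suprarenal array of that pool was also the lowest of its region, and without pool 1 the difference was 0.25 (adjusted p = 0.609). The brown adipocyte marker level was 2.54 on the suprarenal array of pool 12, against 4.68 to 5.29 on the other suprarenal arrays.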

How the results depend on the processing

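Under the 15 alternatives, 122 of 134 values of the 9 genes kept their sign and stayed short of an adjusted p of 0.05, and 12 changed sign; 0 were called, with a smallest adjusted p of 0.445. Selp (0.19 to 0.34) and Sele (0.074 to 0.16) kept their sign under every alternative run. F11r did not turn, but ran from -0.33 without pool 1 to -0.00011, in effect no difference, without pool 12. The paired design changed no call: with no replicate block 0 probes and 0 of the 9 genes passed, and Selp differed by the same 0.28 with an unadjusted p of 0.121. After quantile normalization 1 probe passed, higher in infrarenal aorta and not of these genes, and Icam1, Selplg and Jam3 turned to 0.077, 0.025 and 0.11. Leaving out each pool in turn gave ranges of -0.060 to 0.11 for Vcam1, -0.13 to 0.062 for Icam1, -0.0016 to 0.18 for Icam2, -0.19 to 0.10 for Selplg, -0.57 to 0.050 for Jam2 and -0.12 to 0.041 for Jam3; the cause was not tested. Selp had an unadjusted p of 0.112 without pool 6 and 0.0849 without pool 1. Probes with an unadjusted p under 0.05 numbered 2726 in all, 1475, 1802 and 2191 without pools 6, 8 and 11, and 2948 and 3933 without pools 1 and 12. Jam2 had no value with the dimmest probes left out, and every gene had a single probe, so averaging probes changed only the number of tests.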
